A study of Mus musculus with 18 samples.

Results

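The 10 genes followed here through 18 mouse RNA libraries are signature genes of basophils, mast cells and eosinophils: Cpa3, Gzmb, Mcpt8, Prss34, Fcer1a, Ms4a2, Hdc, Prg2, Epx and Cd200r3. They were picked by symbol from the 22787 genes of the deposited table, and all 10 were found in it. Of the libraries, 12 were made from granulocyte-monocyte progenitors (GMPs), the marrow cells that give rise to neutrophils and monocytes, each from 10000 sorted cells. There were 4 progenitor groups of 3 libraries, Raptor KO with its control Raptor fl/fl and Tsc2 KO with its control Tsc2 fl/fl. Raptor, encoded by Rptor, is an essential part of the growth-regulating kinase complex mTORC1, and Tsc2 is part of a brake on the same complex. The fl/fl controls carry loxP-flanked alleles, and the labels used here name neither a Cre driver nor the age of the mice. The remaining 6 were made from the DR-ER-Hoxb8 line, myeloid progenitors kept immature by an estradiol-dependent Hoxb8 protein, after 3 days without estradiol in medium with stem cell factor. All 6 were differentiated in this way, with DMSO as vehicle, rapamycin at 100 nM (an mTORC1 inhibitor) or SL0101-01 at 10 nM (sold as an inhibitor of RSK kinases), 2 libraries each. Nothing in the labels says that libraries of a group came from separate mice or cultures, so p values measure only the spread between these libraries, which may be technical.

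Basophils and mast cells carry the high-affinity IgE receptor, whose crosslinking by antigen releases histamine and proteases from granules. Eosinophils store cationic toxins instead. All these cells arise from marrow progenitors through stages that carry Gata1 and Gata2, and their first granule and receptor transcripts appear long before the cells are mature. The progenitor sort selected cells positive for c-kit and FcγRII/III, with low CD34 and Ly6C, and lacking Sca-1, CD127 and CD135. No antibody to the IgE receptor is named in the labels beyond a lineage panel whose contents they do not list. The 10 genes are not cell types: in RNA of many cells, fewer cells of a type and less RNA per cell cannot be told apart.

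Promoter windows were taken from RefSeq (build GRCm38.p6), each running from 250 bases before the transcript start to 50 after it. Of the 10 genes 9 had an entry, and Prg2 had none. The windows of 4 genes are shown 5′ to 3′ because these genes carry the results below: Mcpt8 passed the test in Tsc2 KO progenitors, Prss34 came nearest to it there, Cpa3 passed in rapamycin, and Hdc was the 1 gene that was abundant in the cell line. Capitals mark each match to GATAA, the core of the site bound by GATA factors, read on either strand (TTATC on the other).
Mcpt8 (chr14:56085148-56085447, minus strand): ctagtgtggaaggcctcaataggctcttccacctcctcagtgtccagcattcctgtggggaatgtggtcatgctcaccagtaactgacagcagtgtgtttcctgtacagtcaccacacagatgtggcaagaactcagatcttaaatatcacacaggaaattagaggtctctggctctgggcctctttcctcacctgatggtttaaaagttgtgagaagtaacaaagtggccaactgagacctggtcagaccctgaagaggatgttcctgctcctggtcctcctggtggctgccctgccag
Prss34 (chr17:25298144-25298443, plus strand): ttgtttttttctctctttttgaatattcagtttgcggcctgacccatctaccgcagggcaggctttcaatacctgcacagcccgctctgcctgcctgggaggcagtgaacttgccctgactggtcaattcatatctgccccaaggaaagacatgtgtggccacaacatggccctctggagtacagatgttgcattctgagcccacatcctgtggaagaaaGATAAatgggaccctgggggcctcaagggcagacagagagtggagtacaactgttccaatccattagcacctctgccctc
Cpa3 (chr3:20242132-20242431, minus strand): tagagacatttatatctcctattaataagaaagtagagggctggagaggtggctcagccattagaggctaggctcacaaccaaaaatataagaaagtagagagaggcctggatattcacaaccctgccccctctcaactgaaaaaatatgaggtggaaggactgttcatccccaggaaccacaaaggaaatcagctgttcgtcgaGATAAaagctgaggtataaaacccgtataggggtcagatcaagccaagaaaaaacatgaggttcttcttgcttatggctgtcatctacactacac
Hdc (chr2:126618629-126618928, minus strand): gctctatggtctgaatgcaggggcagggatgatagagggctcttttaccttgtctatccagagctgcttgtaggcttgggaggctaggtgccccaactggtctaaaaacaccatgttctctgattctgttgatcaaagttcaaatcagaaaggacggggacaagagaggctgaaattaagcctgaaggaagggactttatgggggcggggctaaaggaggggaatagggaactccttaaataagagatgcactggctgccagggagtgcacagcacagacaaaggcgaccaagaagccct
GATAA was present in 5 of the 9 windows (Cpa3, Prss34, Fcer1a, Ms4a2 and Cd200r3), against 25.4% of 32851 promoter windows in the RefSeq table. In Prss34 the match began 30 bases before the transcript start, and in Cpa3 it began 45 bases before it. A further 3 motifs were searched on both strands. TGTGGT, the letters bound by RUNX factors, was in 4 of the 9 windows against 16.8% of all windows. TTCNNNGAA, the STAT pattern, was in 1 (Gzmb) against 8.3%, and CACGTG, an E-box that MITF can bind, was in 0 of 9 against 7.2%. These are letter matches in a short window, and nothing was measured on the factors at these sites.

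The values are signal units: each gene's fragments after division by the library's size factor. The libraries held 2.48 to 3.52 M fragments in progenitors and 2.31 to 3.3 M in the Hoxb8 line. Differences below are log2 fold changes on the log2(signal + 1) scale with their standard error (SE), from limma fits over all genes, and a gene is called where its Benjamini-Hochberg adjusted p is under 0.05. Tsc2 was at 103, 99 and 83 in Tsc2 KO libraries against 269, 235 and 241 in Tsc2 fl/fl, and it fell by 1.38 (SE 0.18, adjusted p 1.7e-04). Rptor was at 61.5, 58.7 and 69.5 in Raptor KO against 88, 78.6 and 86.8 in Raptor fl/fl, with no overlap but without passing (log2 fold change -0.41, SE 0.24, adjusted p 0.377). These values cover the whole gene, and the labels do not name the flanked exons, so they check the labels only in part.

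Tsc2 KO library 1 and Tsc2 fl/fl library 2 lay apart from their groups. Summed GMP markers (Mpo, Elane, Prtn3, Ctsg, Ms4a3 and Cebpa) came to 39156 in Tsc2 KO library 1 against 7563 and 11597 in the other Tsc2 KO libraries. In Tsc2 fl/fl library 2 they came to 35898 against 77270.1 and 81401. Results of the Tsc2 comparison are also given without both libraries, an alternative chosen after seeing the data. Markers of other lineages moved too. Summed signal of 8 erythroid markers was 11686 to 23453 in Tsc2 KO and 2764 to 9791 in Tsc2 fl/fl, and 4 of the 8 rose. Of 4 macrophage markers tested, 3 rose (summed signal 325 to 624 against 1.69 to 6.94, with Mertk at 0 in every Tsc2 fl/fl library). B cell markers fell in 4 of 5 genes (16.3 to 65 against 277 to 449, with Pax5 at 0 in Tsc2 KO). Of 5 megakaryocyte markers 4 fell (159 to 178 against 375 to 705), and of 7 NK and T cell markers 1 fell (221 to 797 against 789 to 1281, with Cd3e at 0 in both groups). In Raptor KO the erythroid sum was 1684 to 2246 against 3486 to 4001 with 2 of 8 genes lower, and the macrophage sum was 189 to 668 against 32.5 to 51.4 with 1 of 4 higher. There B cell markers fell in 4 of 5 genes (97.4 to 140.1 against 622 to 873), megakaryocyte markers in 2 of 5 and NK and T cell markers in 1 of 7. Of the 4 plasmacytoid dendritic cell markers 0 passed in limma in either knockout comparison, with 3 at an unadjusted p under 0.05 in Raptor KO and 0 in Tsc2 KO. Of the 6 GMP markers 0 passed in Raptor KO, also unadjusted. In Tsc2 KO 2 of 6 fell, and all 6 had an unadjusted limma p under 0.05 (27.2% of all genes). The median log2 fold change of the 6 was -2.10 there. Of the 10 gate genes 2 rose in Raptor KO and 3 fell in Tsc2 KO. The part of these shifts in the results below was not tested.

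All 10 genes were read in the progenitor gate, and 9 of them were low in the Hoxb8 line. Per kb of exon, median levels over the 12 progenitor libraries ran from 3.36 for Cd200r3 to 2172 for Prg2. Prss34 (1377 per kb), Mcpt8 (1059.6 per kb) and Cpa3 (702 per kb) followed Prg2, and the IgE receptor genes Fcer1a (197 per kb) and Ms4a2 (147 per kb) were lower. Epx, Hdc (75.5 per kb) and Gzmb (56 per kb) were lower still. In the Hoxb8 libraries Fcer1a and Gzmb were at 0 fragments in all 6, and no library held more than 5 fragments of Mcpt8, 3 of Prss34, 4 of Epx or 2 of Cd200r3. Only Hdc was abundant in both systems, at 144 to 601 signal units in progenitors and 787 to 1095 in the line. The plot of every library shows this split.

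Ordered by group mean, Raptor KO came first for 7 genes (Cpa3, Mcpt8, Prss34, Fcer1a, Prg2, Epx and Cd200r3), Raptor fl/fl for Ms4a2, Tsc2 fl/fl for Gzmb and rapamycin-treated Hoxb8 cells for Hdc. For Prss34, Fcer1a and Prg2 the Raptor KO libraries lay apart from those of the next group, Raptor fl/fl. For Cpa3, Mcpt8 and Cd200r3 the next group was Tsc2 KO, and the ranges overlapped. For Ms4a2 the means of Raptor fl/fl and Raptor KO (601 ± 194 and 558 ± 64.7, SD, n = 3) were above those of Tsc2 KO and Tsc2 fl/fl (249.8 ± 157 and 203 ± 54.9, SD, n = 3). The lowest Raptor fl/fl library (399) lay below the highest Tsc2 KO library (430.2), however, and Raptor and Tsc2 groups were not tested against each other. The ranges of all 4 progenitor groups of Gzmb and of Epx overlapped from each neighbour to the next.

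**Figure D1:**
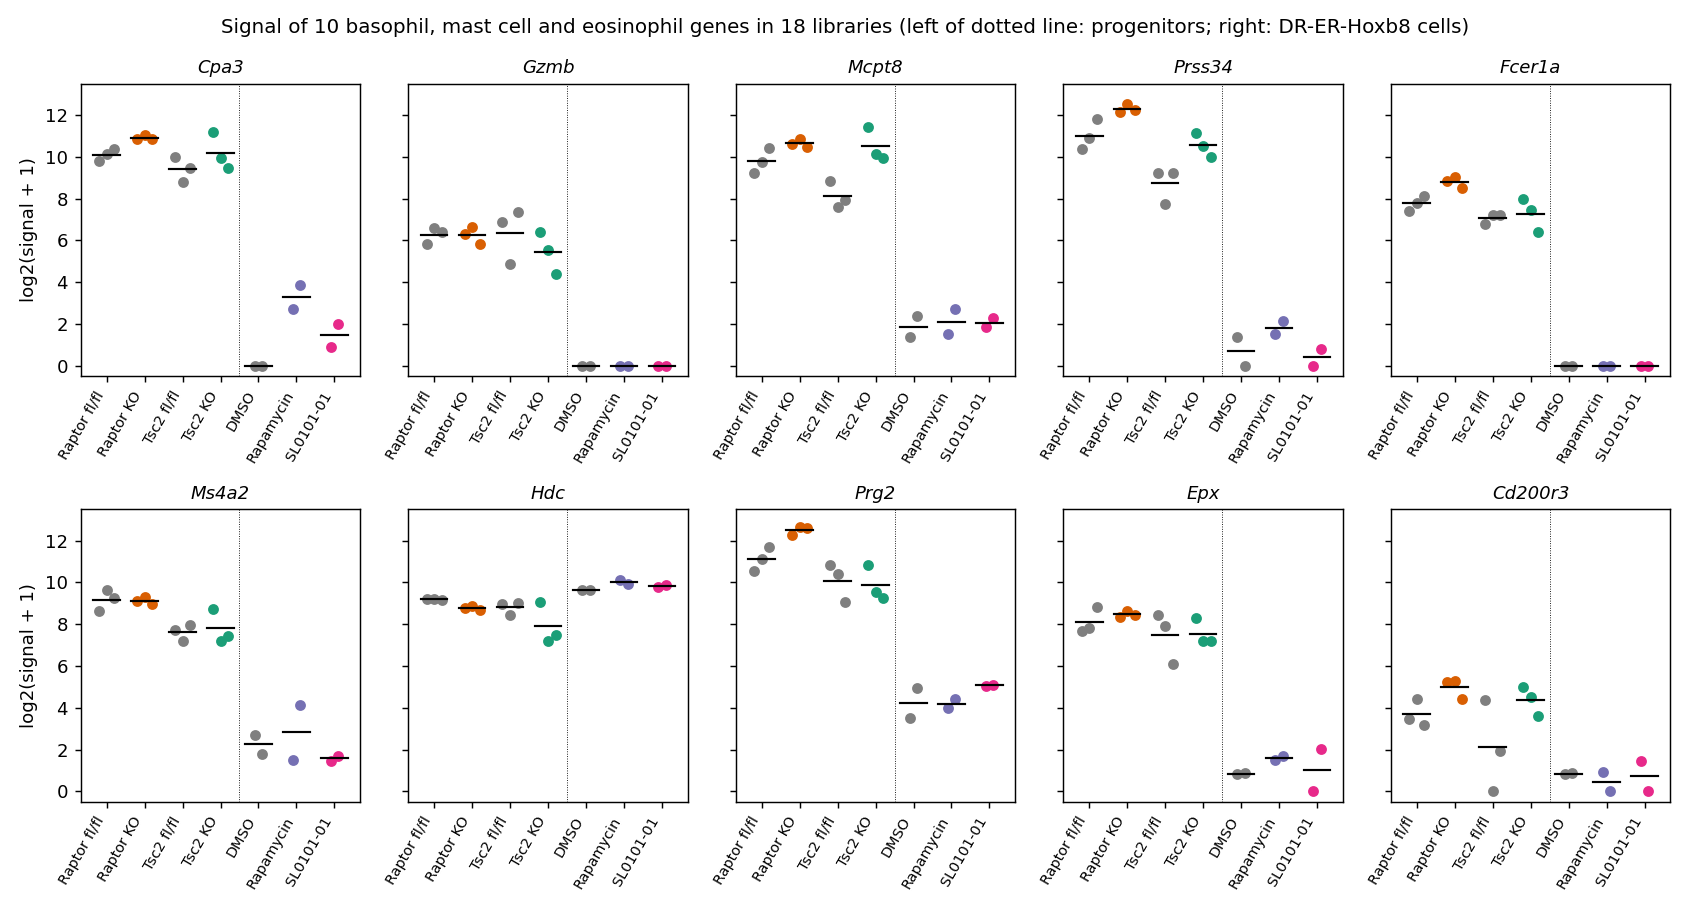
Each panel plots 1 gene, with log2(signal + 1) on the vertical axis, 1 point per library and a bar at the group mean; the 4 progenitor groups (3 libraries each) stand left of the dotted line and the 3 Hoxb8 groups (2 each) right of it. Hdc is the gene whose Hoxb8 libraries (787 to 1095 signal units) lie above all its progenitor libraries (144 to 601).

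Mcpt8 encodes mouse mast cell protease 8, a serine protease used as a marker of basophils. Its signal was 2724, 1133 and 981 in Tsc2 KO and 464, 191 and 239 in Tsc2 fl/fl, so every Tsc2 KO library lay above every control. The gene rose by 2.38 (SE 0.48, limma adjusted p 0.0151), and the ratio of the group means was 5.41. Tsc2 KO library 1 was the highest of the 3, yet the call was kept without it and without Tsc2 fl/fl library 2 (log2 fold change 1.66, adjusted p 0.0397 with both left out). It was lost without Tsc2 fl/fl library 3 (adjusted p 0.0533). In Raptor progenitors the signal was 1585, 1867 and 1392 in KO and 594, 854 and 1358 in fl/fl. Those groups did not overlap, if narrowly, and the difference did not pass (log2 fold change 0.86, SE 0.48, adjusted p 0.386). The Tsc2 fl/fl libraries also lay below the Raptor fl/fl libraries, so the 2 knockout groups had nearly equal means, 1613 and 1614, from unequal controls.

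Prss34 encodes another basophil serine protease. It was at 2226, 1464 and 1027 in Tsc2 KO and 601, 212 and 594 in Tsc2 fl/fl, with no overlap (log2 fold change 1.82, SE 0.51, adjusted p 0.0511). The adjusted p lay just above the threshold and fell to 0.0476 with a pseudocount of 5 and to 0.0434 without the filter on low values. Without Tsc2 KO library 1 and Tsc2 fl/fl library 2 it was 0.162. In Raptor KO, Prss34 reached 4517, 5859 and 4878 against 1319, 1897 and 3550 in Raptor fl/fl. All 3 knockout libraries were higher, with a ratio of means of 2.25, but the controls spread widely and the difference did not pass (log2 fold change 1.29, SE 0.51, adjusted p 0.214).

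Cpa3 encodes carboxypeptidase A3, stored in the granules of mast cells and immature basophils. In Raptor KO it was at 1852, 2136 and 1832, above the 892, 1105 and 1331 of Raptor fl/fl (log2 fold change 0.82, SE 0.44, adjusted p 0.365). In Tsc2 KO it was at 2295, 978 and 699 against 1026, 439.9 and 715, and the groups overlapped (log2 fold change 0.76, SE 0.44, adjusted p 0.316). Without the 2 Tsc2 libraries that lay apart, that second value became -0.05. Gzmb, granzyme B, is a cytotoxic protease also made by mast cells and some progenitors. Its Raptor groups overlapped, at 78.5, 98.8 and 56.4 in KO and 55.6, 95 and 83.6 in fl/fl (log2 fold change -0.00, SE 0.64, adjusted p 1). In Tsc2 KO it was at 82.2, 45.4 and 20 against 117, 27.9 and 164 (log2 fold change -0.93, SE 0.64, adjusted p 0.399). Here the low control was Tsc2 fl/fl library 2: without that library Gzmb was lower in Tsc2 KO with an adjusted p of 0.0208 (log2 fold change -1.69). Over all fits without 1 library the log2 fold change ran from -1.69 to -0.41, with adjusted p up to 0.786.

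Fcer1a encodes the IgE-binding α chain of the receptor and Ms4a2 its β chain. Fcer1a was at 455, 524 and 365 in Raptor KO and 169.6, 221 and 274 in Raptor fl/fl. The groups did not overlap and the means differed by a ratio of 2.02, with the smallest adjusted p of the 10 genes in this comparison (log2 fold change 1.02, SE 0.32, adjusted p 0.0996). Tsc2 KO libraries were at 251, 173 and 83 against 110.1, 146 and 146 (log2 fold change 0.21, SE 0.32, adjusted p 0.744). Ms4a2 did not follow it: Raptor KO libraries (550.4, 626 and 497) lay inside the range of Raptor fl/fl (399, 785 and 619), with a log2 fold change of -0.06 (SE 0.40, adjusted p 0.963). Its Tsc2 groups overlapped as well, at 430.2, 147 and 172 in KO and 214, 144 and 252 in fl/fl (log2 fold change 0.16, SE 0.40, adjusted p 0.844). Cd200r3, an activating receptor of basophils and mast cells, was rare. It was at 36.1, 37.9 and 20.7 in Raptor KO against 10.1, 20.2 and 8.11 (log2 fold change 1.29, SE 0.81, adjusted p 0.427). Its Tsc2 KO libraries were at 31.2, 22 and 11.1 against 19.9, 0 and 2.82 (log2 fold change 2.27, SE 0.81, adjusted p 0.0815). The single control library at 19.9 overlapped the knockouts, and without it the adjusted p was 0.00449. Over all fits without 1 library the log2 fold change ran from 1.22 to 3.41, with adjusted p up to 0.213. Without the 2 Tsc2 libraries that lay apart the log2 fold change of Cd200r3 was 0.90 (adjusted p 0.363).

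Hdc encodes histidine decarboxylase, the enzyme that makes histamine. Its log2 fold change was below 0 in both knockouts, without passing. Raptor KO libraries were at 445, 465 and 415, below the 601, 589 and 571 of Raptor fl/fl, in tight groups that did not overlap (log2 fold change -0.41, SE 0.40, adjusted p 0.64). That SE is shared with the Tsc2 libraries: fitted with the 2 Raptor groups alone the same fold change had an adjusted p of 0.0212. In that fit Cpa3 (8.3e-05) and Fcer1a (2.7e-04) passed too, and 1249 of all genes were called, against 522 with all 12 libraries. In Tsc2 KO, Hdc was at 533, 144 and 179 against 499, 350.3 and 526 (log2 fold change -0.91, SE 0.40, adjusted p 0.173). Library 1 of Tsc2 KO lay at the control level, and without it the other libraries gave a log2 fold change of -1.49 (adjusted p 9.7e-07). Over all fits without 1 library the log2 fold change ran from -1.49 to -0.55, with adjusted p up to 0.442.

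Prg2 (major basic protein) and Epx (eosinophil peroxidase) encode the main granule toxins of eosinophils, and Prg2 is also found in basophil and mast cell precursors. Prg2 was at 4957, 6495 and 6293 in Raptor KO and 1499, 2256 and 3334 in Raptor fl/fl. The ratio of means, 2.50, was the largest of the 10 genes in this comparison, and the groups did not overlap, yet the adjusted p was 0.223 (log2 fold change 1.39, SE 0.56). In Tsc2 KO it was at 1836, 743 and 616 against 1804, 1343 and 535, and the groups overlapped (log2 fold change -0.21, SE 0.56, adjusted p 0.861). Epx overlapped in both comparisons. It was at 329.7, 395 and 347 in Raptor KO against 206, 229 and 446 (log2 fold change 0.37, SE 0.60, adjusted p 0.799), and at 313, 144 and 145 in Tsc2 KO against 348, 242 and 67.7 (log2 fold change 0.07, SE 0.60, adjusted p 0.966).

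**Figure D2:**
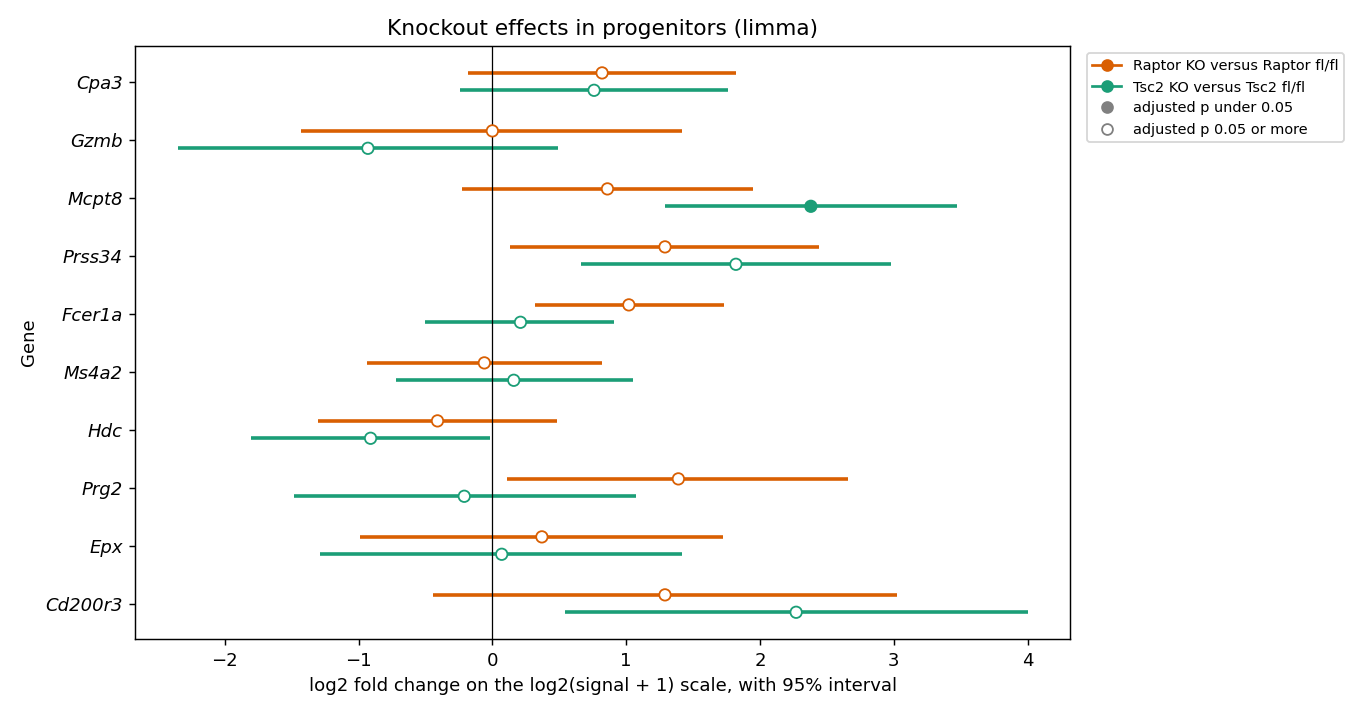
Log2 fold change (horizontal axis, with its 95% interval from limma) for each of the 10 genes in Raptor KO against Raptor fl/fl and Tsc2 KO against Tsc2 fl/fl; filled points have an adjusted p under 0.05. Mcpt8 in Tsc2 KO (2.38) is the single filled point, and Prg2 lies at 1.39 in Raptor KO and -0.21 in Tsc2 KO.

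Counted over the set, 0 of 10 genes passed in Raptor KO, where 3.94% of the 13237 genes tested passed in either direction. At an unadjusted p under 0.05 there were 3 of 10, where 19% of all genes were, and with voom weights (a precision weight for each fragment count) 0. Without the 2 Tsc2 libraries that lay apart, which share the fit, Cpa3, Fcer1a and Hdc passed (adjusted p 0.00301, 0.0116 and 0.0325). In that fit 1243 of all genes passed, against 522 with all 12 libraries. The median log2 fold change of the 10 over all 12 libraries was 0.84, and that of all genes was 0.03. In Raptor KO 6 genes lay higher in all knockout libraries than in any control (Cpa3, Mcpt8, Prss34, Fcer1a, Prg2 and Cd200r3), as did 13.3% of all genes, and 1 lay lower (Hdc), as did 13.1% of all genes. In Tsc2 KO 1 of 10 passed and it was higher; 12.4% of all genes passed in either direction and 5.26% were higher. The median of the 10 was 0.18 against -0.02 for all genes. Without both libraries that lay apart 3 passed, Mcpt8 higher and Gzmb (log2 fold change -2.16, adjusted p 5.1e-05) and Hdc (-1.67, adjusted p 3.9e-09) lower. That fit called 3183 of all genes, against 1638 with all 12 libraries. Over all 12 libraries Mcpt8 and Prss34 lay higher without overlap, against 14.6% of all genes, and none lay lower, against 13.3%.

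Whether the knockouts acted differently on a gene was tested as the Raptor KO effect minus the Tsc2 KO effect. No gene of the 10 passed, where 12.4% of all genes did, and none had an unadjusted p under 0.05 (27.4% of all genes) or passed with voom weights. The smallest p values were those of Mcpt8 (difference of log2 fold changes -1.52, SE 0.68, adjusted p 0.188), Prg2 (1.60, SE 0.79, adjusted p 0.233) and Fcer1a (0.82, SE 0.46, adjusted p 0.276). Their 95% intervals reached from -3.07 to 0.02, from -0.21 to 3.40 and from -0.18 to 1.81. Mcpt8 had its larger estimate in Tsc2 KO and Prg2 in Raptor KO, without a difference that passed. This count rests on Tsc2 KO library 1: without that library 2 genes passed, Hdc (1.07, adjusted p 0.00152) and Fcer1a (1.17, adjusted p 0.0261), and without Tsc2 fl/fl library 2 as well there were 4. The 4 were Hdc (1.26, SE 0.19, adjusted p 2.3e-05), Gzmb (2.16, SE 0.46, adjusted p 0.00106), Cpa3 (0.87, SE 0.25, adjusted p 0.0164) and Fcer1a (1.10, SE 0.37, adjusted p 0.0407), each with the higher effect in Raptor KO. Over all genes 3088 passed without both libraries, against 1646 with all 12 libraries. Leaving out 1 library at a time gave 897 to 2519.

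In the Hoxb8 line 7 of the 10 genes had enough signal to be tested, and 1 of them passed. Cpa3 was at 0 in both DMSO libraries and at 5.5 and 13.4 in rapamycin, which stood for 6 and 12 fragments. Cpa3 met the filter, a value of 1 in 2 Hoxb8 libraries, only through the rapamycin group, where it was highest. It rose with rapamycin (log2 fold change 3.28, SE 0.73, limma adjusted p 0.00396). The rapamycin mean of 9.47 was 3.9-fold a floor of 3 fragments per DMSO library (2.43), but the rapamycin library at 5.5 lay nearer to that floor. In SL0101-01 it was at 0.875 and 3.03 (log2 fold change 1.46, SE 0.73, adjusted p 0.226). The call rests on few fragments: it was lost without DMSO library 1 (adjusted p 0.0518) or 2 (0.0502), or without rapamycin library 2 (0.0978). Of all 11804 genes tested 11.7% passed in rapamycin and 5.4% were higher there, so 1 of 7 lies near the background. The median of the 7 was 0.57 against -0.01 for all genes.

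Hdc was at 1095 and 963 in rapamycin, 885 and 929.8 in SL0101-01 and 808 and 787 in DMSO. The 3 groups did not overlap, with rapamycin highest, but neither inhibitor passed (log2 fold change 0.36, SE 0.14, adjusted p 0.0978 for rapamycin; 0.19, SE 0.14, adjusted p 0.449 for SL0101-01). Prg2 stayed low at 14.7 and 20.2 in rapamycin, 32.4 and 33.3 in SL0101-01 and 10.3 and 29.9 in DMSO (log2 fold change -0.04, SE 0.43, adjusted p 0.975, and 0.86, SE 0.43, adjusted p 0.231). Ms4a2 was at 1.83 and 16.8 in rapamycin, 1.75 and 2.27 in SL0101-01 and 5.53 and 2.49 in DMSO, so 1 rapamycin library held most of it (log2 fold change 0.57, SE 0.75, adjusted p 0.705). With SL0101-01 none of 7 passed, where 10.9% of all genes did, and none had an unadjusted p under 0.05 (23.9% of all genes) or passed with voom weights. Rapamycin and SL0101-01 were compared with the same DMSO libraries and, directly, with each other. In the direct comparison none of 7 passed against 8.87% of all genes, 1 had an unadjusted p under 0.05 (23.6% of all genes), and 0 passed with voom weights. That 1 was Cpa3, higher in rapamycin by 1.82 (SE 0.73, 95% interval 0.31 to 3.33, adjusted p 0.124). The labels give 100 nM and 10 nM as the doses of the 2 compounds, so they were not matched. GMP markers summed to 57853 and 57899 in rapamycin, 24501 and 32009 in SL0101-01 and 10987 and 11992 in DMSO, and the part of that shift in the Cpa3 and Hdc values was not tested.

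Wider lists of genes were counted beside the 10. Of all genes tested 1.53% rose and 2.42% fell in Raptor KO, and 5.26% rose and 7.12% fell in Tsc2 KO. With rapamycin 5.4% rose and 6.35% fell, and with SL0101-01 5.09% rose and 5.79% fell. Among other proteases and mediators of mast cells, 11 of a list of 19 were tested. In Tsc2 KO 5 rose and 1 fell, with a median log2 fold change of 1.97 against -0.02 for all genes. Among those that rose, Tpsab1 and Rgs13 met the filter on low values only through the Tsc2 KO libraries, where they were high. The median is the value of Rgs13 itself, so the count and the median rest in part on how genes entered the test. Cma1, mast cell chymase, was at 82.2, 88 and 48.1 in Tsc2 KO and 13, 2.54 and 4.7 in Tsc2 fl/fl, with a ratio of means of 10.79. It rose by 3.44 (SE 0.49, adjusted p 3.4e-04) and kept its call when any 1 library was left out. Tpsab1, a tryptase, was at 5.97, 95.6 and 16.3 in the 3 Tsc2 KO libraries and at 0 in all 9 other progenitor libraries. It met the filter on low values only through those 3 libraries, where it was high. In limma it rose (adjusted p 9.6e-04). The Tsc2 KO mean of Tpsab1 was at least 14.8-fold a floor of 3 fragments per control library, or at least 4.2-fold without Tsc2 KO library 2. Its near copy Tpsb2, at 0.663, 48.8 and 6.67 in Tsc2 KO and 0, 0 and 3.76 in Tsc2 fl/fl, was not called, and fragments of the 2 tryptases may be split between them. The library highest in tryptase was Tsc2 KO library 2, not library 1, which was highest for all 10 genes above.

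Ndst2, which sulfates the heparin that holds mast cell proteases in granules, varied little within groups. It was at 141, 138 and 141 in Tsc2 KO and 32.9, 33.8 and 28.2 in Tsc2 fl/fl, and it rose by 2.11 (SE 0.21, adjusted p 1.1e-05). In Raptor KO it rose too, at 100.5, 111 and 99.6 against 43.3, 35 and 36.5 (log2 fold change 1.42, SE 0.21, adjusted p 0.00114). Both calls were kept in all 6 fits that left out 1 library. Hpgds, the prostaglandin D2 synthase of mast cells, likewise rose in both: by 2.63 in Raptor KO (SE 0.64, adjusted p 0.0273) and by 2.20 in Tsc2 KO (SE 0.64, adjusted p 0.0305). Its values were 35.4, 55 and 34.8 against 12.3, 1.56 and 8.11, and 31.2, 12.4 and 8.89 against 2.6, 0.846 and 5.64. The other called genes were Rgs13 in Tsc2 KO (log2 fold change 1.97, at 2.65, 4.13 and 2.22 against 0 in each control), Alox5ap, which fell by 1.33 there, and Tph1 in Raptor KO (2.75). Rgs13 met the filter only through the Tsc2 KO libraries and Tph1 only through the Raptor KO libraries, where each was high. Both are among the genes counted as rising. The Rgs13 values also lie near a floor of 3 fragments (mean 2.09 in Tsc2 KO). With 1 library left out, the call of Hpgds was kept in 1 of 6 fits in Raptor KO and in 2 of 6 in Tsc2 KO. That of Alox5ap was kept in 2 of 6, that of Rgs13 in 1 of the 3 fits that tested it, and that of Tph1 in 0 of 3. In all, 3 of 11 rose in Raptor KO and none fell, and with 1 library left out the number that rose was 1 to 2 there and 2 to 4 in Tsc2 KO. In the Hoxb8 line 6 were tested, and Hpgds fell with rapamycin (-1.50, adjusted p 0.035) and with SL0101-01 (-2.41, adjusted p 0.00135), calls kept in 0 of 4 and 3 of 4 fits without 1 library. Without Tsc2 KO library 1 and Tsc2 fl/fl library 2 the Tsc2 counts became 3 higher and 2 lower, in a fit that called 3183 of all genes. For Cma1 the 2 knockout effects differed (difference -2.96, SE 0.70, adjusted p 0.0109), as they did for Tpsab1 (-4.50, SE 1.05, adjusted p 0.0103), whose size depends on the pseudocount because 3 of its 4 groups were at 0.

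**Figure D3:**
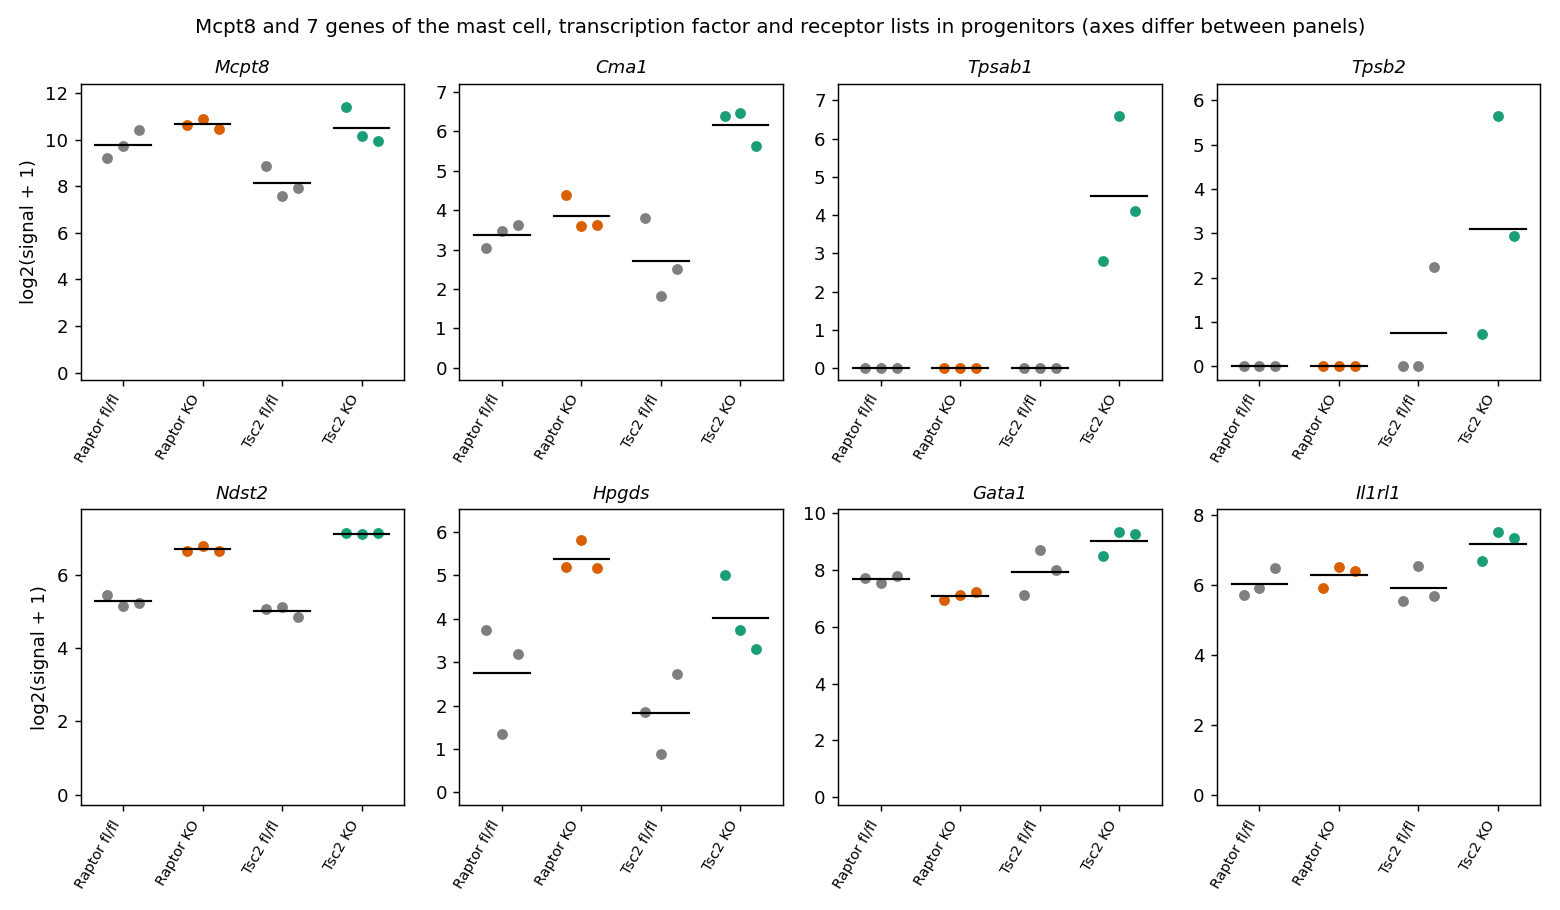
Log2(signal + 1) of Mcpt8, 5 genes of the mast cell list (Cma1, Tpsab1, Tpsb2, Ndst2 and Hpgds), the transcription factor Gata1 and the receptor Il1rl1 in the 12 progenitor libraries; points are libraries and bars group means. Ndst2 lies higher in both knockout groups, while Tpsab1 is above 0 only in the 3 Tsc2 KO libraries (5.97, 95.6 and 16.3 signal units).

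Mcpt8, Cma1 and Gzmb stand in 1 cluster of granzyme and chymase genes on chromosome 14. Between Mcpt8 and Gzmb the annotation has 7 genes, among them Ctsg, the cathepsin G of neutrophil granules. Of 18 genes in a wider window around them, 12 were below 10 signal units in every progenitor library. The neighbours did not move as a block: in Tsc2 KO group means were 72.8 for Cma1 against 6.75 in the control and 1613 for Mcpt8 against 298. Ctsg was at 2286 against 5526 and Gzmb at 49.2 against 103, and neither passed. Mcpt4, the connective tissue mast cell chymase, was at 3.19 in Tsc2 KO and 0 in Tsc2 fl/fl.

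Among 14 tested basophil markers and cytokines 2 rose and 0 fell in Raptor KO, while 4 rose and 2 fell in Tsc2 KO. With 1 library left out, 1 rose in Raptor KO, and in Tsc2 KO 3 to 5 rose and 1 to 4 fell. Cyp11a1, a steroid-making enzyme found in activated basophils and mast cells, was at 304, 381 and 260.3 in Raptor KO against 38.2, 95 and 82.8 (log2 fold change 2.20, SE 0.53, adjusted p 0.045). In Tsc2 KO it was at 186, 75 and 68.1 against 31.2, 7.61 and 26.3 (2.34, SE 0.53, adjusted p 0.0164). The Raptor call of Cyp11a1 was lost in all 6 fits without 1 library, and that in Tsc2 KO was kept in all 6. Lilrb4, an inhibitory receptor shared with mast cells and macrophages, rose by 3.41 in Raptor KO (SE 0.57, adjusted p 0.00247) and by 3.21 in Tsc2 KO (SE 0.57, adjusted p 0.00174). Il6 and Ccl3 rose in Tsc2 KO (2.25 and 1.28), where Cd69 and Ltb4r1 fell, the latter by 2.01 on the log2 scale. With 1 library left out the calls of Ccl3 and Ltb4r1 were kept in 6 of 6 fits, that of Il6 in 5 and that of Cd69 in 3. Il4, the cytokine that basophils are best known for, was at 19.8, 26 and 32.9 in Raptor KO against 2.89, 7.01 and 6.49, and did not pass. In the Hoxb8 line 1 of 10 tested genes of this list rose and 4 fell in rapamycin, and 1 rose and 5 fell in SL0101-01 (2 to 4 and 2 to 5 fell with 1 library left out), with Il4, Il6 and Il13 at 0 in all 6 libraries.

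The eosinophil list gave no call in Raptor KO (0 of 9 tested) and 1 lower in Tsc2 KO (Siglec5, -2.03, SE 0.50, adjusted p 0.0189), whose call was kept in 2 of 6 fits without 1 library. At an unadjusted p under 0.05 there were 2 of 9 in Raptor KO and 3 of 9 in Tsc2 KO, near the 19% and 27.2% of all genes. Ear6, an eosinophil-associated ribonuclease, was at 155, 227 and 182 in Raptor KO against 21.3, 33.5 and 105, and at 6.63, 1.44 and 1.48 in Tsc2 KO against 50.3, 34.7 and 4.7. The log2 fold changes, 2.11 in Raptor KO (adjusted p 0.174) and -2.61 in Tsc2 KO (adjusted p 0.0558), did not pass, but they differed from each other (4.71, SE 1.14, adjusted p 0.0216), as did those of Ear1 (2.95, SE 0.95, adjusted p 0.0495). With 1 library left out the Ear6 difference was kept in 7 of 12 fits and that of Ear1 in 3 of 12. The Ear genes are near copies, so fragments may be split among them. Prg3, a paralog of Prg2, was at 299, 433 and 401 in Raptor KO against 107, 150.2 and 175 and did not pass.

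Of 18 transcription factors of these lineages 1 rose in Raptor KO (Xbp1, 0.65), and in Tsc2 KO 1 rose and 2 fell, shares near those of all genes in Tsc2 KO. The Xbp1 call was kept in 3 of 6 fits without 1 library, and the number that fell in Tsc2 KO ran from 0 to 9 over such fits. Gata1, which is shared by the erythroid, mast cell, basophil and eosinophil lineages, was at 361, 651 and 611 in Tsc2 KO against 138, 415 and 255 (log2 fold change 1.10, SE 0.33, adjusted p 0.047). That call was kept in 2 of the 6 fits that left out 1 library, and the erythroid marker sum was also higher in Tsc2 KO, as given above; its part in the Gata1 value was not tested. Gata2 was at 253, 465 and 367 against 257, 300.3 and 312 and Mitf at 13.9, 7.57 and 5.19 against 36.4, 15.2 and 19.8, and neither passed. Cebpe and Runx1 fell (-1.56 and -0.81), calls kept in 4 and 3 of 6 fits. In the Hoxb8 line 2 of 17 rose and 4 fell with rapamycin, and 0 rose and 3 fell with SL0101-01, with Mitf lower in both (-1.56 and -1.40). With 1 library left out the Mitf call was kept in 1 of 4 fits with rapamycin and 0 of 4 with SL0101-01, and the number that fell was 2 to 4 and 0 to 2.

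Of 16 receptors tested, 2 rose in Raptor KO (Il4ra and Kit), and 1 rose and 3 fell in Tsc2 KO. With 1 library left out, 1 to 3 rose in Raptor KO, and 0 to 2 rose and 2 to 5 fell in Tsc2 KO. Il4ra, the IL-4 receptor chain, went up in 1 knockout and down in the other. It was at 249.7, 331 and 257 in Raptor KO against 70.7, 73.2 and 115 (log2 fold change 1.71, SE 0.28, adjusted p 0.00228). In Tsc2 KO it was at 31.8, 15.8 and 21.5 against 106, 64.3 and 63 (-1.72, SE 0.28, adjusted p 9.3e-04). The difference of 3.43 (SE 0.40) passed with an adjusted p of 1.1e-04. Il1rl1, the IL-33 receptor of mast cells and basophils, rose in Tsc2 KO, at 103, 182 and 162 against 46, 92.2 and 50.8 (1.26, SE 0.29, adjusted p 0.00971), and kept its call in 2 of 6 fits that left out 1 library. Kit, the receptor for stem cell factor, was at 1088, 1284 and 1253 in Raptor KO against 829.7, 778 and 757 (0.61, SE 0.12, adjusted p 0.00757), and it was a gate marker whose call was kept in 4 of 6 fits. Crlf2 and Csf2ra fell in Tsc2 KO (-1.19 and -1.44), calls kept in 6 and 4 of 6 fits. In the Hoxb8 line 14 receptors were tested: 1 rose and 2 fell with rapamycin, and 2 rose and 2 fell with SL0101-01. Kit rose with rapamycin and with SL0101-01 (1.15 and 0.99), and Csf2rb2 fell with both (-1.24 and -0.91). Il4ra fell with rapamycin (-0.62). With SL0101-01 Itgb7 fell (-1.92) and Crlf2 rose (0.70). Fits without 1 Hoxb8 library leave a group of 1, and sizes there ran from -0.77 to -0.47 for Il4ra. They ran from -2.03 to -1.80 for Itgb7 and from 0.63 to 0.76 for Crlf2. The call of Crlf2 was lost in every such fit. Those of Il4ra and of Csf2rb2 with SL0101-01 were lost in some, while those of Kit and Itgb7 were kept.

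Of 15 genes of signalling below the IgE receptor, 0 rose and 5 fell in Tsc2 KO (median log2 fold change -0.49). Syk, the kinase that docks on the receptor's γ chain, was at 113, 48.8 and 60.7 against 229.8, 233 and 200.3 (-1.65, SE 0.23, adjusted p 2.8e-04). Lcp2, Plcg2, Vav1 and Btk fell by 1.80, 1.50, 1.11 and 0.61. The calls of Syk, Lcp2, Plcg2 and Vav1 were kept in 6 of 6 fits without 1 library, and that of Btk in 2. In Raptor KO 1 of 15 rose, the adaptor Gab2 (1.37, SE 0.33, adjusted p 0.0312), and none fell; the Gab2 call was lost in all 6 fits without 1 library. In the Hoxb8 line 3 of 15 fell with rapamycin and 3 with SL0101-01, among them Fcer1g, the receptor's γ chain (-1.02 and -0.63, kept in 4 of 4 and 1 of 4 fits), which was at 2042 and 2333 in rapamycin, 3112 and 2653 in SL0101-01 and 4307 and 4569.6 in DMSO. Many of these genes serve other myeloid receptors as well, and Fcer1g was abundant in a line that had no Fcer1a fragments. Of 14 genes of granule packaging, 1 rose in Raptor KO (Ndst2), and in Tsc2 KO 1 rose (Ndst2) and 3 fell (Lyst, Cst7 and Serpinb1a). Those 3 calls were kept in 3, 2 and 1 of 6 fits without 1 library, and the number that fell ran from 0 to 6.

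Within groups, the 10 genes did not vary independently. After group means were removed, Pearson's r of log2(signal + 1) over the 12 progenitor libraries was above 0 for 44 of the 45 pairs, with a median of 0.59. Part of this rests on 2 libraries: Tsc2 KO library 1 was the highest of its group for all 10 genes, and Tsc2 fl/fl library 2 was the lowest of its group for 7. With these left out the median over the 45 pairs was 0.32 and 33 were above 0. Raptor KO library 2 was likewise the highest of its group for all 10. Some pairs kept together: Prg2 with Epx (r 0.95, Spearman's rho 0.97, and 0.96 over the 10 remaining libraries), and Cpa3 with Mcpt8 (r 0.93, rho 0.93, and 0.91) and Prss34 (0.84, rho 0.89, and 0.78). Mcpt8 and Prg2 also stayed close (0.78, and 0.91 without the 2 libraries). Hdc did not: its r with Cpa3 was 0.82 over 12 libraries and -0.57 over 10. These are descriptions over libraries that share groups, a sort and a size-factor scale. Correlations were not computed for pairs drawn from all genes, so whether such co-variation is particular to the 10 was not tested.

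**Figure D4:**
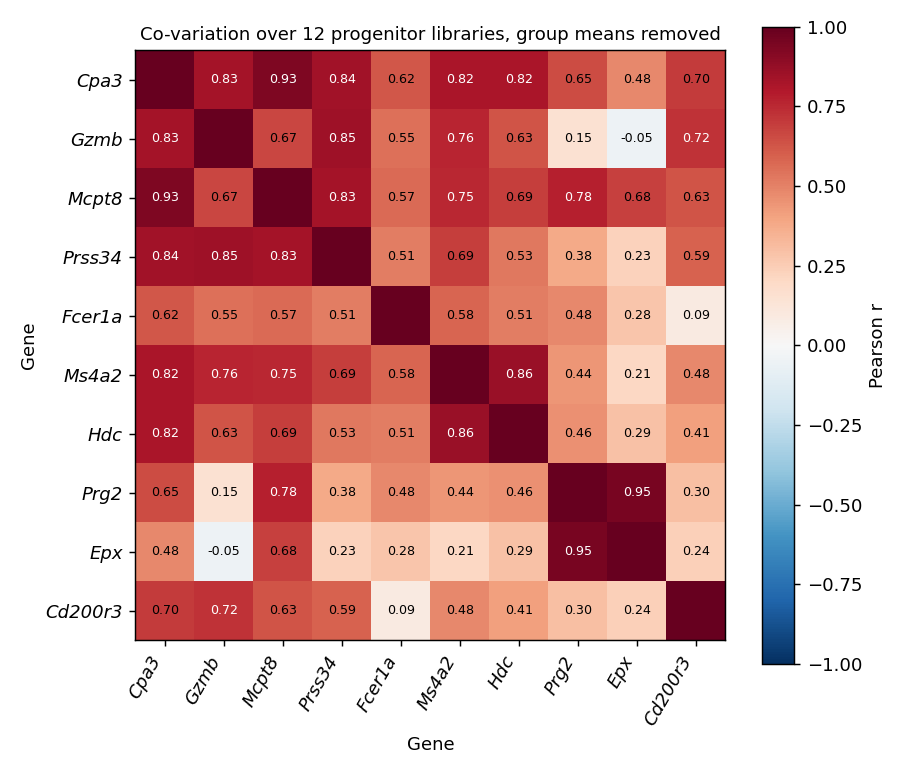
Pearson's r between the 10 genes over the 12 progenitor libraries after group means were removed, written in each square and coloured from -1 to 1. Prg2 and Epx (0.95) and Cpa3 and Mcpt8 (0.93) are the closest pairs, and Gzmb and Epx (-0.05) the one pair below 0.

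The genes with the most similar pattern were ranked by the same r among 9944 genes with a mean of at least 10. The ranking used all progenitor libraries, among them the Tsc2 KO library and the Tsc2 fl/fl library that lay apart. It was not repeated without those libraries, so their part in the values below, those of Hdc included, was not tested. Prg2 and Epx both had Ear6 first (0.96 and 0.99) and each other second (0.95). Cpa3 and Mcpt8 both had Stx3 first (0.97 and 0.94) and Fndc3b second (0.96 and 0.94). Hdc was nearest to Vim, Lcp1, Atp8b4, Akr1e1 and Fli1, each at 0.99, and Ms4a2 to Nhsl2 and Matk (0.97 each). Prss34 was nearest to Camp and Man2a1 (0.93 each), Fcer1a to Larp4 (0.94), Gzmb to Cybb (0.94) and Cd200r3 to Dph6 (0.96).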

How the data were processed

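The authors deposited 1 table of signal values, the fragments of each gene scaled by the library's size factor. Cufflinks 2.2.1 with Cuffnorm, TopHat2 2.0.10 and BWA are named, with no order or role, per the submitters' processing notes, with the genome build not given in the sources used here. Of the non-zero values in a library, 98.9% to 99.0% were multiples of a single step within 0.01, which gave the number of fragments; all 10 genes were whole in all 18 libraries.

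Groups came from the sample titles, because the genotype field of the Tsc2 samples names Raptor. limma 3.58.1 (R 4.3.3) was fitted to log2(signal + 1), separately for 12 progenitor and 6 Hoxb8 libraries, with a variance trend and robust estimation, and was checked on simulated data. Genes needed a value of 1 in at least 3 progenitor or 2 Hoxb8 libraries. P values were Benjamini-Hochberg adjusted within each of 6 comparisons. Exon lengths came from GENCODE. All 10 genes are named; of the 16 lists, up to 5 called genes per list and comparison, and otherwise up to 3 of the highest mean; Il4, Il13, Prg3, Gata2, Mcpt4, Tpsb2, Ctsg and Alox5ap, and the markers Mertk, Pax5 and Cd3e, were chosen after their values were seen. Fold changes in Hoxb8 cells are given for those of the 10 genes with at least 10 fragments in some Hoxb8 library. Some genes of the lists are not reported here and were left out of the list counts, but not of the fits. The genes and lists were chosen with earlier results of these data known. Alternatives covered the pseudocount, filter, normalization, trend, libraries in the fit, replicate block, voom weights and each library left out.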

Additional observations from a re-analysis of the deposited data

Results flagged for a closer look

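With all 12 progenitor libraries, none of the 10 genes passed the limma test for a difference between the Raptor and Tsc2 knockout effects. Without Tsc2 KO library 1, Hdc and Fcer1a passed (adjusted p 0.00152 and 0.0261), as given above. Genes of the wider lists passed with all 12 libraries. Each is given here as the log2 effect of Raptor KO minus that of Tsc2 KO, with its adjusted p under 0.05. The effect was higher in Raptor KO for the eosinophil ribonucleases Ear6 (4.71) and Ear1 (2.95), for the receptors Il4ra (3.43), Crlf2 (1.27), Il18rap (1.82), Itgb7 (1.36) and Csf2ra (1.52), and for the IgE receptor signalling genes Syk (1.70), Plcg2 (1.83), Lcp2 (1.89), Gab2 (2.00) and Vav1 (1.30). It was also higher there for Lyst (1.67), Cst7 (2.15), Xbp1 (0.98) and Runx1 (0.98). It was higher in Tsc2 KO for the mast cell proteases Tpsab1 (-4.50) and Cma1 (-2.96) and for Gata1 (-1.69). With each of the 12 libraries left out in turn, the difference was called in 12 of 12 fits for Il4ra, Syk, Plcg2, Lcp2, Gab2, Xbp1 and Cma1. The difference was called in 10 fits for Crlf2, 9 for Vav1, 7 for Ear6, 6 for Il18rap, 5 for Itgb7, 4 for Lyst and Runx1, 3 for Ear1 and Gata1, and 2 for Csf2ra and Cst7. Tpsab1 met the filter only through the Tsc2 KO libraries, where it was high. The 9 fits that tested it kept all of these, so they cannot check its call. Under other settings its call was kept in 7 of 9 fits (adjusted p up to 0.149). Groups of 2 or 3 libraries are too small for a test of single outlying libraries.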

How the results depend on the processing

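Each comparison was refitted under other settings, 1 choice at a time. The planned edgeR tests were not run, because whole fragments could not be recovered for all values; voom weights were run on the recovered fragments. The number of the 10 genes called in Tsc2 KO, 1 as reported, was 2 with a pseudocount of 5, with no filter or with a filter at 5, 3 with all 18 libraries in 1 fit and 0 with only the groups compared. In Raptor KO, 0 as reported, it was 3 with only the groups compared. In rapamycin, 1 as reported, it was 0 with no expression trend. Without Tsc2 KO library 1 and Tsc2 fl/fl library 2, chosen after seeing the data, it was 3 in Raptor KO, 3 in Tsc2 KO and 4 for the difference of effects; the genes called were then 1243, 3183 and 3088. Leaving out 1 library at a time gave 0 to 0 of the 10 genes in Raptor KO, 0 to 2 in Tsc2 KO, 0 to 2 for the difference, 0 to 1 in rapamycin, 0 to 0 in SL0101-01 and 0 to 1 between the inhibitors.

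Over all genes, calls with no expression trend were 188 in Raptor KO, 827 in Tsc2 KO, 599 for the difference, 171 in rapamycin, 87 in SL0101-01 and 0 between the inhibitors. With only the groups compared they were 1249 in Raptor KO, 471 in Tsc2 KO and 542 between the inhibitors. With all 18 libraries in 1 fit they were 817 in Raptor KO, 727 in rapamycin, 592 in SL0101-01 and 278 between the inhibitors. With 1 library left out they ranged from 146 to 402 in Raptor KO, 601 to 2498 in Tsc2 KO, 897 to 2519 for the difference, 540 to 1164 in rapamycin, 323 to 868 in SL0101-01 and 128 to 863 between the inhibitors.

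Fold changes of single genes that had not passed changed sign in some settings. In Raptor KO, Ms4a2 was 0.04 under quantile normalization and -0.33 to 0.16 with 1 library left out. In Tsc2 KO, leaving out 1 library gave -0.72 to 0.15 for Prg2, -0.31 to 0.46 for Ms4a2, -0.63 to 0.54 for Epx and -0.15 to 0.65 for Fcer1a. Prg2 was 0.11 without both Tsc2 libraries of replicate 2. Without the 2 libraries that lay apart Cpa3 was -0.05, Fcer1a -0.08, Ms4a2 -0.54 and Epx -0.09. In rapamycin Prg2 ranged from -0.76 to 0.69 and Ms4a2 from -0.75 to 1.90, and between the inhibitors Ms4a2 ranged from -0.08 without rapamycin library 2 to 2.57 without library 1 (adjusted p 0.0398). A lone rapamycin library is there assumed to vary like the other groups. The cause of these changes was not tested.

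Mcpt8 in Tsc2 KO stayed between 1.66 and 2.75 in every setting run, with adjusted p from 0.00463 to 0.0688. It lost its call without Tsc2 fl/fl library 3 (0.0533), with only the groups compared (0.0503) and without both libraries of replicate 2 (0.0688). Cpa3 in rapamycin lost its call in 3 of 4 fits with 1 library left out, and its size moved from 1.48 to 4.42 with the setting, since DMSO was at 0.

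The main fits did not pair samples by replicate number. Correlations of same-numbered deviations were 0.01 to 0.05 in Raptor, -0.03 to 0.25 in Tsc2 and 0.00 to 0.05 in Hoxb8 groups. Differently numbered libraries were not correlated, so these values do not settle whether the numbers pair the samples. With the replicate number as a block, 2 of the genes passed in rapamycin (Cpa3, and Hdc with adjusted p 0.0372). Between the inhibitors 1691 genes then differed, against 1047 without the block.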
